A study of Mus musculus with 8 samples.

Results

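The integrated stress response genes described here are 10 genes of the ATF4 program, *Atf4*, *Atf5*, *Ddit3*, *Ppp1r15a*, *Trib3*, *Asns*, *Chac1*, *Sesn2*, *Ddit4* and *Gdf15*, out of 27998 genes in the matrices. They were taken by symbol, and each matched 1 entry. The list was chosen with earlier results of these same libraries in view, so their levels by cell type and by condition are given as a description and support no conclusion about the list. The cells came from left ventricles of male C57BL/6 mice aged 10 to 12 weeks, with 3 hearts pooled into a sample. IR (ischemia-reperfusion) mice had 30 min of ligation of the left anterior descending coronary artery followed by reperfusion, and sham mice had the same surgery without ligation. IR hearts were taken at 6 h of reperfusion. The sham samples are titled 0 h, although the surgical protocol describes their hearts as taken at the same 6 h. There are 4 samples listed for each condition but 1 matrix of UMI counts, in which no barcode names its sample, so each condition is 1 library. All comparisons of IR with sham below set 1 library against 1, with no replicates and no test.

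The integrated stress response is started by kinases that phosphorylate the translation factor eIF2α in response to amino acid shortage, misfolded protein in the endoplasmic reticulum (ER), heme shortage or viral RNA. Most protein synthesis then slows, while the mRNA of *Atf4* is translated more efficiently, and the ATF4 protein binds composite C/EBP-ATF elements in genes for amino acid supply, redox balance and, with prolonged stress, cell death. ATF4 is therefore controlled largely at translation, and an mRNA level such as the one measured here does not report its protein. *Gdf15*, a secreted member of the transforming growth factor-β family, is released by stressed tissues including the ischemic heart.

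The promoter windows of the members show which of them carry the letters of the 2 elements through which ATF4 and related factors bind. RefSeq windows (GRCm38.p6, from 250 bases before to 50 bases after the annotated start) were found for 10 of 10 members and searched on both strands. The C/EBP-ATF response element TGATGNAA was present in the windows of 3 members, *Chac1*, *Trib3* and *Asns*, and in 3.97% of all 32851 windows of 300 bases. The cAMP response element TGACGTCA was present in *Ppp1r15a* alone among the members and in 1.79% of all windows. A match is only a run of letters, and a window without one says nothing of elements elsewhere in a gene. The matched stretches are shown 5′ to 3′ on the gene's strand with the element in capitals.
Chac1 (chr2:119351003-119351102, plus strand, element starting 193 bases before the start): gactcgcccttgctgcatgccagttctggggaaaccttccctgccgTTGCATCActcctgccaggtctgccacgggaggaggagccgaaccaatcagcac
Asns (chr6:7693214-7693243, minus strand, 23 bases before the RefSeq start, inside an exon of the GENCODE annotation): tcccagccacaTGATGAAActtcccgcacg
Trib3 (chr2:152344028-152344057, minus strand, element starting 15 bases after the RefSeq start and lying before the start of the gene in the GENCODE annotation): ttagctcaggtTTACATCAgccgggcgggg
Ppp1r15a (chr7:45526269-45526326, minus strand, 12 bases before the start): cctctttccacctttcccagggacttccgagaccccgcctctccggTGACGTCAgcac

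*Chac1* and *Trib3* hold the element as its reverse complement on the gene's strand, and *Asns* holds it in the forward sense. These genes were among the members with the fewest UMIs in macrophage/monocyte-like cells, as described for each gene. In the GENCODE annotation of the same build, *Atf4* lies at chr15:80255184-80257541 on the plus strand, *Sesn2* at chr4:132492032-132510501, *Ddit4* at chr10:59949669-59951834 and *Gdf15* at chr8:70629393-70632456 on the minus strand. *Atf5* lies at chr7:44812256-44816658, *Ppp1r15a* at chr7:45522916-45526268, *Trib3* at chr2:152337422-152344032 and *Asns* at chr6:7675169-7693254 on the minus strand, and *Ddit3* at chr10:127290774-127296288 and *Chac1* at chr2:119351229-119354381 on the plus strand. Exons of *Atf5* overlap those of *Il4i1* and *Nup62* on the opposite strand, those of *Ddit3* overlap *Mars* and *Gm4189*, and those of *Ppp1r15a* overlap *Tulp2*. Whether strand was used in counting is not given in the sources used here, so a contribution of these partners to the 3 genes was not tested. No other member overlapped an exon of another gene.

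The sham library held 58653308 UMIs in 11620 barcodes and the IR library 75033226 UMIs in 8539 barcodes. The study's limits (between 200 and 2500 genes per cell, mitochondrial UMIs up to 30%) left 9777 sham and 4880 IR cells. The upper limit removed 14.1% of the sham cells that met the other limits and 40.9% of those of IR, including 64.9% of IR macrophage/monocyte-like and 88.7% of IR fibroblast-like cells, against 10.3% and 16.3% in sham. Values without that limit are therefore given beside the main results of the members. The study states more cells after filtering than these limits leave in the matrices, most of all for IR, so whether its own cells were held to the upper limit is not known. Cells were assigned to classes by their UMIs of marker genes. In a check by graph clusters, the macrophage/monocyte-like, neutrophil-like and fibroblast-like cells of sham and of IR lay largely in different clusters. Among the cells kept there were 3114 sham and 697 IR macrophage/monocyte-like cells, 247 and 2257 neutrophil-like cells, 2945 and 176 fibroblast-like cells, 789 and 124 mural-like cells (pericytes and smooth muscle), 241 and 59 endothelial-like cells, 1121 and 680 B cell-like, 425 and 263 T cell-like and 218 and 63 NK cell-like cells. The 2 libraries shared 30 barcode sequences. A level is the UMIs of a gene per 1000000 UMIs of the class (counts per 1000000, CPM). Intervals are 95% intervals for counting error only and do not cover differences between mice or between cells.

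The 10 members together made up 837 CPM (interval 823 to 852) in sham macrophage/monocyte-like cells and 1018 (987 to 1050) in IR. These sums were 830 and 841 without the upper limit on genes, a difference within counting error. In fibroblast-like cells the sum was 1261 (1242 to 1279) in sham and 883 (817 to 953) in IR, and 1274 and 829 without the limit. In neutrophil-like cells it was 812 (741 to 888) in sham and 801 (783 to 819) in IR, and 798 and 812 without the limit. The lowest sums were those of sham NK cell-like cells, 474 (423 to 531), and IR T cell-like cells, 510 (474 to 548). *Ppp1r15a*, *Atf4* and *Ddit3* contributed to these sums in every class, joined in single classes by others, such as *Atf5* in fibroblast-like, *Gdf15* in macrophage/monocyte-like, *Ddit4* in endothelial-like and *Sesn2* in neutrophil-like cells, while with the limit *Trib3*, *Asns* and *Chac1* stayed below 40 CPM in each of the 8 classes and both libraries.

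**Figure D1:**
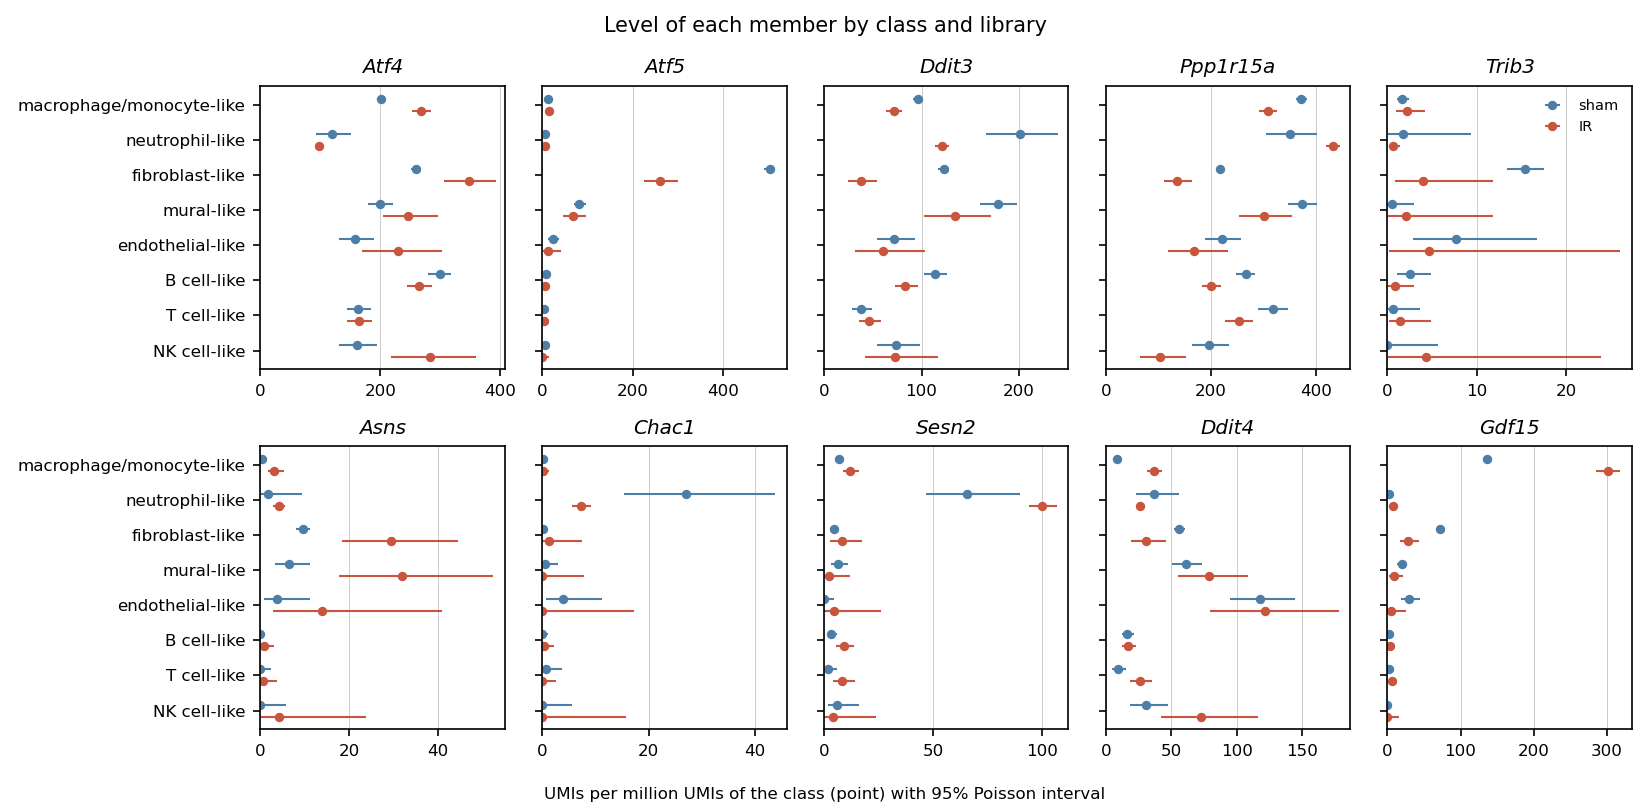
Each panel plots 1 member in CPM on the x axis (linear, a different scale in each panel) for the 8 classes on the y axis, with sham in blue and IR in red, and bars giving the 95% Poisson interval. *Atf5* stands out in fibroblast-like cells (504 in sham), *Sesn2* and *Chac1* in neutrophil-like cells (65.7 and 26.9 in sham) and *Gdf15* in macrophage/monocyte-like cells (301 in IR), whereas *Atf4* and *Ppp1r15a* were found in every class.

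*Atf4*, the central transcription factor of the response, was found in all 8 classes. In sham its level ran from 120 CPM in neutrophil-like cells to 299 in B cell-like cells, with fibroblast-like (260), macrophage/monocyte-like (202), mural-like (199), T cell-like (163), NK cell-like (161) and endothelial-like cells (158) in between. B cell-like cells exceeded fibroblast-like cells, and those exceeded macrophage/monocyte-like cells, beyond counting error, whereas the T, NK and endothelial-like levels did not differ beyond it. In IR macrophage/monocyte-like cells the level was 268 (1094 UMIs), a log2 ratio of IR to sham of 0.41 (interval 0.31 to 0.51). Without the upper limit on genes the levels were 198 and 223, a log2 ratio of 0.17 (0.11 to 0.23). In fibroblast-like cells the IR level was 347 (259 UMIs), a log2 ratio of 0.42 (0.23 to 0.60), or 0.14 (0.09 to 0.20) without the limit. Neutrophil-like cells had the lowest *Atf4* level in both libraries, 120 (71 UMIs) in sham and 97.0 (923 UMIs) in IR. No class reached a 2-fold difference in *Atf4*.

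*Atf5*, a relative of ATF4 that is also translated preferentially under stress, had its highest level in fibroblast-like cells in both libraries. Fibroblast-like cells held 504 CPM (492 to 515) in sham, followed by mural-like cells with 82.3 and endothelial-like cells with 23.0, and they contributed 92.6% of the 7738 *Atf5* UMIs of the filtered sham cells and 43.5% of the 446 of IR, where these cells were few. After each fibroblast-like cell was thinned to 1000 UMIs, 35.3% of 2894 sham cells (interval 33.6% to 37.1%) and 22.9% of 166 IR cells (16.7% to 30.0%) held an *Atf5* UMI, against 0.47% of 424 sham T cell-like cells, a class at the bottom of the order. Without thinning these shares were 71.1% and 51.7% in fibroblast-like cells and 1.41% in sham T cell-like cells, at median depths of 4953, 4103.5 and 3089 UMIs. In IR fibroblast-like cells the *Atf5* level was 260 (225 to 300), a log2 ratio of -0.95 (-1.17 to -0.75). Among cells of any gene number the levels were 497 (9714 UMIs) and 222 (5182 UMIs), a log2 ratio of -1.16 (-1.21 to -1.11), which is past 2-fold. Macrophage/monocyte-like cells held 13.5 in sham and 15.2 in IR, a difference within counting error. Without the limit these were 19.4 and 12.2, a log2 ratio of -0.67 (-0.90 to -0.44), so the direction in macrophages depended on which cells were kept.

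*Ddit3* encodes CHOP, the transcription factor that links prolonged stress to cell death. In sham it was highest in neutrophil-like (200 CPM, 119 UMIs) and mural-like cells (178), which did not differ beyond counting error, and lowest in T cell-like cells (38.4). In fibroblast-like cells it was 123 in sham (1744 UMIs) and 37.6 in IR (28 UMIs), a log2 ratio of -1.71 (-2.30 to -1.17), and without the upper limit 126 (2460 UMIs) and 36.2 (846 UMIs), a log2 ratio of -1.80 (-1.91 to -1.68). Macrophage/monocyte-like cells held 95.9 in sham and 71.6 in IR, a log2 ratio of -0.42 (-0.61 to -0.24), or -0.75 (-0.86 to -0.65) without the limit. Neutrophil-like cells went from 200 in sham to 121 in IR (log2 ratio -0.73, -1.01 to -0.45, or -0.65 without the limit). *Ddit3* was thus lower in the IR library in each of these 3 classes, while *Atf4* was higher in the macrophage/monocyte-like and fibroblast-like cells.

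*Ppp1r15a* and *Trib3* act as feedback on the response: the first encodes GADD34, the subunit that directs a phosphatase to eIF2α, and the second a pseudokinase that dampens ATF4 and CHOP. *Ppp1r15a* had the highest level of the members in 6 of the 8 sham classes, all but fibroblast-like and B cell-like cells. In sham, mural-like (373 CPM), macrophage/monocyte-like (371) and neutrophil-like cells (350) did not differ beyond counting error, and fibroblast-like cells held 217. In IR, neutrophil-like cells held 432 (4109 UMIs), a log2 ratio of 0.30 (0.10 to 0.51), macrophage/monocyte-like cells 308 (-0.27, -0.36 to -0.18) and fibroblast-like cells 136 (-0.68, -0.98 to -0.39). The ratios without the limit were 0.36, -0.21 and -0.51. *Ppp1r15a* is also read as an immediate-early gene, and 13 immediate-early genes that tissue digestion also raises were read beside it. Their summed level went from 15776 to 22776 CPM in neutrophil-like, from 27779 to 23988 in macrophage/monocyte-like and from 26320 to 9551 in fibroblast-like cells. The single genes went both ways. In neutrophil-like cells 2 were at least 2-fold higher and 3 lower, against 13.7% and 24.9% of all genes. The counts were 2 and 1 in macrophage/monocyte-like cells (1 and 4 without the upper limit), against 10.2% and 11.6%, and 0 and 9 in fibroblast-like cells (0 and 10), against 12.5% and 18.9%. Their part in the *Ppp1r15a* levels was not tested. *Trib3* had few UMIs outside the sham fibroblast-like cells, which held 218 of the 270 in sham. Their level was 15.3, which did not exceed that of endothelial-like cells (7.66, 6 UMIs) beyond counting error. In IR fibroblast-like cells it was 4.03 (3 of the 27 UMIs), a log2 ratio of -1.93 (-4.22 to -0.36). With cells of any gene number the counts were 341 and 155 UMIs, levels of 17.4 and 6.64, and the log2 ratio -1.39 (-1.68 to -1.12). The *Trib3* levels of macrophage/monocyte-like cells rested on 24 and 9 UMIs and were within counting error, whereas without the limit (39 and 24 UMIs) the log2 ratio was -0.92 (-1.72 to -0.15).

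*Asns*, asparagine synthetase, is the textbook target of ATF4 in amino acid shortage. Fibroblast-like cells held 9.56 CPM in sham (136 UMIs) and 29.5 in IR (22 UMIs), a log2 ratio of 1.63 (0.91 to 2.28). With cells of any gene number the counts were 222 and 1124 UMIs, the levels 11.4 and 48.2, and the log2 ratio 2.08 (1.87 to 2.30). Mural-like cells held 6.42 in sham (12 UMIs) and 31.9 in IR (15 UMIs), a log2 ratio of 2.31 (1.12 to 3.54), or 2.05 (1.07 to 3.12) without the limit. Macrophage/monocyte-like cells had 6 UMIs in sham and 13 in IR, levels of 0.41 and 3.18 and a log2 ratio of 2.97 (1.47 to 4.65). Without the limit there were 14 and 83 UMIs, levels of 0.74 and 3.76 and a log2 ratio of 2.35 (1.52 to 3.28). *Asns* was therefore higher in IR in these 3 classes with either set of cells, from a level in macrophages that was lower than in fibroblasts. In B, T and NK cell-like cells it had no UMI in sham and 1 or 2 in IR, all within the 3 UMIs that a count of 0 allows.

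*Chac1*, which degrades glutathione, was found mainly in neutrophil-like cells, which held 55.2% of its 29 UMIs in sham and 86.3% of its 80 UMIs in IR. Sham neutrophil-like cells held 26.9 CPM (16 UMIs, 15.4 to 43.8) and IR neutrophil-like cells 7.25 (69 UMIs, 5.64 to 9.18), a log2 ratio of -1.89 (-2.69 to -1.01), and -1.56 (-2.33 to -0.69) without the upper limit. The graph clusters named neutrophil held 0 sham and 1334 IR cells, 58 and 810, 11 and 221, and 176 and 6. Sham and IR cells of this class thus lay largely in different clusters. Macrophage/monocyte-like cells held 1 *Chac1* UMI in each library, and fibroblast-like cells 3 in sham and 1 in IR. The sham value rests on 247 cells, the smallest of the sham groups compared here other than the endothelial-like and NK cell-like cells.

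*Sesn2* and *Ddit4* encode sestrin 2 and REDD1, inhibitors of the growth kinase mTORC1. *Sesn2* had its highest level in neutrophil-like cells, which held 65.7 CPM (39 UMIs, 46.7 to 89.8) in sham and 100.03 (952 UMIs, 93.8 to 107) in IR, against 7.05 and 11.98 in macrophage/monocyte-like cells and less in the other 6 classes. These cells contributed 14.0% of the 278 *Sesn2* UMIs in sham, when there were few of them, and 87.9% of the 1083 in IR. After thinning to 1000 UMIs, 7.63% of 236 sham and 8.87% of 2153 IR neutrophil-like cells held a *Sesn2* UMI, against 0.76% of 263 IR T cell-like cells. The unthinned shares were 14.6%, 30.4% and 4.18%, at median depths of 1716, 3960 and 5405 UMIs. The log2 ratio of *Sesn2* was 0.61 (0.14 to 1.11) in neutrophil-like and 0.77 (0.24 to 1.27) in macrophage/monocyte-like cells, and 0.63 and 0.71 without the limit.

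*Ddit4* had another order. Endothelial-like cells held the most in both libraries, 117 CPM in sham (92 UMIs) and 121 in IR (26 UMIs), with no difference between the libraries beyond counting error. The lead over mural-like cells was beyond counting error in sham and not in IR. Macrophage/monocyte-like (8.95, 132 UMIs) and T cell-like cells (9.26) held the least in sham and did not differ beyond it. In IR macrophage/monocyte-like cells it was 36.9 (151 UMIs), a log2 ratio of 2.04 (1.70 to 2.39), and without the upper limit 11.03 and 33.3 (209 and 736 UMIs), a log2 ratio of 1.59 (1.37 to 1.82). T cell-like (1.48, 0.56 to 2.48) and NK cell-like cells (1.24, 0.21 to 2.24) also held more in IR, from 14 and 20 UMIs in sham, with ratios of 1.09 and 1.02 without the limit. In fibroblast-like cells the IR level was lower, 56.2 against 30.9 (log2 ratio -0.87, -1.53 to -0.27), although only 54.5 against 42.8 (-0.35, -0.47 to -0.22) without the limit. Mural-like cells held 61.0 in sham and 78.6 in IR, within counting error. Without the limit they held 62.9 (140 UMIs) and 163 (195 UMIs), a log2 ratio of 1.38 (1.05 to 1.70). *Ddit4* is a hypoxia and a glucocorticoid-response gene as well. Of 12 other hypoxia genes in macrophage/monocyte-like cells, 6 were at least 2-fold higher in IR and none lower, against 10.2% and 11.6% of all genes in that class, with *Vegfa* at 1.02 and 74.3 and *Slc2a1*, the glucose transporter GLUT1, at 13.5 and 122 CPM. In T cell-like cells, where *Ddit4* was also past 2-fold, 0 of 7 were higher and 0 lower, against 6.02% and 4.45%. The counts were 2 higher and 5 lower of 11 in neutrophil-like cells, against 13.7% and 24.9%, and 3 and 1 of 12 in fibroblast-like cells, against 12.5% and 18.9%. Of 8 glucocorticoid-response genes in macrophage/monocyte-like cells, 2 were at least 2-fold higher, *Fkbp5* (9.90 and 94.4) and *Klf9* (41.1 and 133), and 1 lower, *Tsc22d3* (437 and 211), against 10.2% and 11.6%. Their part in the *Ddit4* levels was not tested.

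*Gdf15* was found mainly in macrophage/monocyte-like cells, which held 61.8% of its 3263 UMIs in sham and 82.9% of its 1487 UMIs in IR. The level there was 137 CPM (131 to 143) in sham and 301 (285 to 319) in IR, a log2 ratio of 1.14 (1.04 to 1.24). Without the upper limit on genes the levels were 132 (2492 UMIs) and 183 (4043 UMIs), a log2 ratio of 0.48 (0.40 to 0.55), so the difference was past 2-fold with the limit and not without it. Fibroblast-like cells went the other way, from 72.1 in sham (1026 UMIs) to 28.2 in IR (21 UMIs), a log2 ratio of -1.36 (-2.05 to -0.74), and from 74.1 to 17.0 (1448 and 396 UMIs) without the limit, a log2 ratio of -2.13 (-2.29 to -1.97). Sham and IR cells of both classes lay largely in different graph clusters. The macrophage/monocyte clusters held 1760 sham and 41 IR cells, 1173 and 5, 106 and 406, and 37 and 353. The fibroblast clusters held 2896 and 66, and 81 and 178. Neutrophil-like cells held 1 UMI in sham and 69 in IR, a level of 7.25 in IR, with an interval of the log2 ratio from -0.42 to 7.43. Mural-like cells held 36 and 4 UMIs, or 39 and 35 without the limit, where the log2 ratio of -1.18 (-3.13 to 0.30) became 0.74 (0.04 to 1.44). B cell-like cells held 5 and 7 UMIs, or 108 and 7 without the limit, so most of their sham *Gdf15* UMIs were in cells above 2500 genes. After thinning, 5.19% of sham and 7.88% of IR macrophage/monocyte-like cells held a *Gdf15* UMI, against 0.24% and 0.76% of T cell-like cells. The unthinned shares were 9.47% and 12.6% against 0.71% and 3.42%, at median depths of 4631.5 and 6399 UMIs in the macrophage/monocyte-like and 3089 and 5405 in the T cell-like cells.

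The members were then read against all genes. Those with at least 20 UMIs over both libraries numbered 8 in macrophage/monocyte-like cells. Of these, 2 (*Ddit4* and *Gdf15*) were at least 2-fold higher in IR, where 10.2% of 11080 genes were, and 0 were at least 2-fold lower, where 11.6% were. The median log2 ratio was 0.42 over these members and 0.01 over all genes. Without the upper limit the medians were 0.17 for the members and -0.10 for all genes. In fibroblast-like cells 1 of 9 members (*Asns*) was at least 2-fold higher, against 12.5% of 11598 genes, and 3 (*Ddit3*, *Trib3* and *Gdf15*) were at least 2-fold lower, against 18.9%, with medians of -0.87 for the members and -0.09 for all genes. These medians were -0.51 and -0.09 without the upper limit. In neutrophil-like cells 2 of 9 members (*Asns* and *Gdf15*, each from 1 UMI in sham) were at least 2-fold higher, against 13.7% of 7794 genes, and 1 (*Chac1*) lower, against 24.9%. There the median over all genes was itself -0.36 and that of the members -0.17 (-0.41 and -0.05 without the upper limit). The log2 ratio of the summed members was -0.02, or 0.34 (0.21 to 0.47, counting error only) with the median gene ratio set to 1. *Ppp1r15a* alone held 4109 of the 7619 IR UMIs in that sum. In mural-like cells 1 of 7 members (*Asns*) was higher, against 7.9% of 8847 genes, and 1 (*Gdf15*, 36 and 4 UMIs) lower, against 10.8%. In B cell-like cells 1 of 6 (*Sesn2*) was higher, against 5.3% of 9014 genes, and 0 lower, against 5.27%. In T cell-like cells 1 of 4 (*Ddit4*) was higher, against 6.02% of 7553 genes, and 0 lower, against 4.45%. Without the upper limit, 2 of 9 members (*Ddit4* and *Asns*) were higher and 0 lower in macrophage/monocyte-like cells, against 9.02% and 16.3% of genes, and 1 of 9 was higher and 4 lower in fibroblast-like cells, against 10.6% and 16.4%. Likewise 2 of 8 were higher (*Asns* and *Ddit4*) and 0 lower in mural-like cells, against 6.52% and 10.2%, 1 of 7 was higher (*Sesn2*) and 2 lower (*Atf5* and *Gdf15*) in B cell-like cells, against 3.94% and 6.98%, and 3 of 6 were higher (*Sesn2*, *Ddit4* and *Gdf15*) and 0 lower in T cell-like cells, against 5.71% and 4.87%. The members that passed this minimum differ from class to class, and with so few of them these counts show nothing particular to the list.

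**Figure D2:**
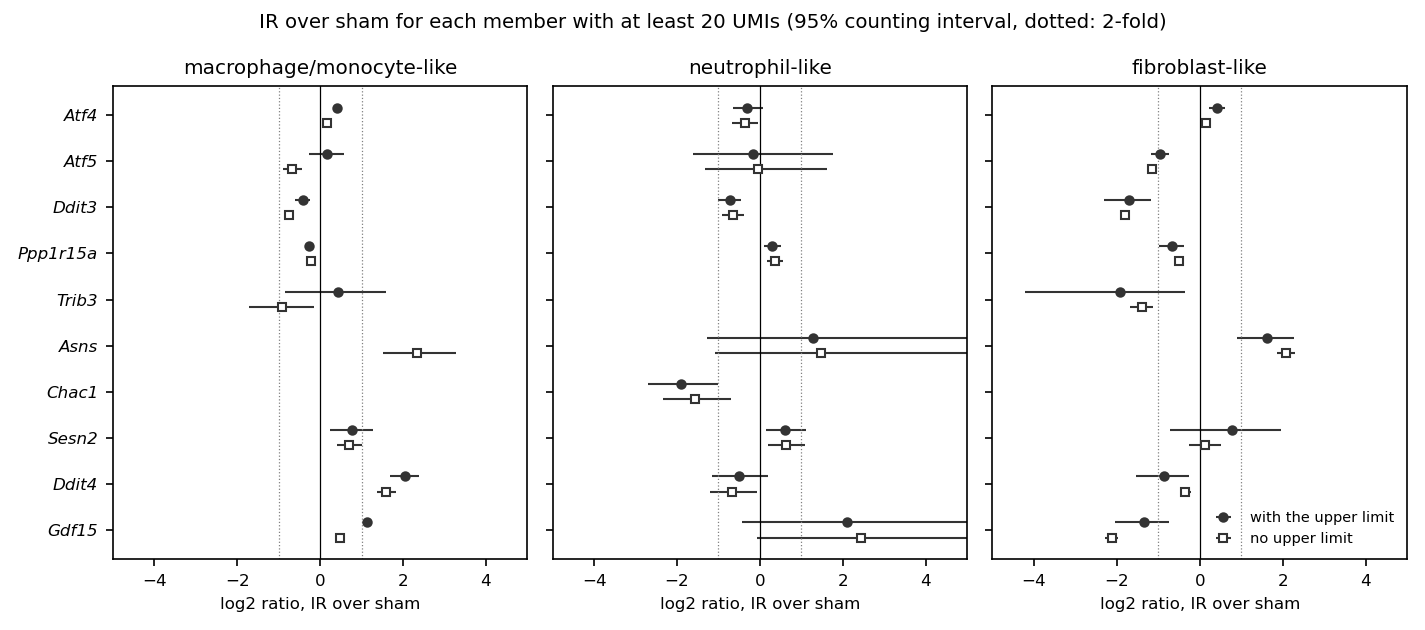
The x axis gives the log2 ratio of IR to sham for each member with at least 20 UMIs in both libraries together (y axis), in macrophage/monocyte-like, neutrophil-like and fibroblast-like cells, as filled circles with the limit of 2500 genes and open squares without it, with 95% counting intervals and dotted lines at 2-fold. *Gdf15* lies at 1.14 in macrophage/monocyte-like and -1.36 in fibroblast-like cells, and *Asns* lies at 1.63 in fibroblast-like cells. The *Asns* value of neutrophil-like cells rests on 1 UMI in sham, with an interval from -1.28 to 6.62.

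The macrophage/monocyte-like cells were separated further by markers of resident macrophages (such as *Lyve1*, *Folr2*, *Timd4* and *Mertk*) and of monocyte-derived cells (such as *Ccr2*, *Ly6c2* and *Plac8*), by which of the lists led at least 2-fold. In sham 1928 cells fell on the resident side, 122 on the monocyte side and 1064 on neither, and in IR 248, 280 and 169. *Ccr2*, one of the markers used, was at 24.0 and 679 CPM on the 2 sides in sham and at 18.5 and 817 in IR. *Gdf15* on the resident side was 122 (115 to 129, 1184 UMIs) in sham and 497 (463 to 533, 779 UMIs) in IR, a log2 ratio of 2.02 (1.89 to 2.16). On the monocyte side it was 60.2 (45 UMIs) and 65.4 (115 UMIs), within counting error. With cells of any gene number the resident side held 120 and 343 (1.52, 1.43 to 1.61), and the monocyte side 86.1 and 37.2 (-1.21, -1.48 to -0.93). Cells on neither side held 182 (787 UMIs) and 444 (339 UMIs), a log2 ratio of 1.29 (1.10 to 1.47), and 1.71 (1.57 to 1.84) without the limit. The higher summed *Gdf15* level of IR was thus found on the resident side and in the cells on neither side, and not on the monocyte side. With the limit, 32 IR cells with at least 10 *Gdf15* UMIs held 89.6% of the UMIs of the class. Of these cells 23 were on the resident and 3 on the monocyte side. The counting intervals do not cover this spread over cells. The resident side exceeded the monocyte side by 1.02 on the log2 scale (0.59 to 1.49) in sham and by 2.93 (2.64 to 3.22) in IR.

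*Atf4* was also higher in IR on the resident side and in the cells on neither side. It was 188 in sham and 290 in IR on the resident side, a log2 ratio of 0.62 (0.47 to 0.77), 233 and 302 on neither (0.37, 0.16 to 0.58), and 195 and 232 on the monocyte side, within counting error. Without the limit the ratios of the resident and the monocyte side were 0.53 (0.44 to 0.62) and -0.14 (-0.31 to 0.02). *Ddit3* was 77.2 and 84.3 on the resident side, within counting error, and 80.2 and 49.5 on the monocyte side, a log2 ratio of -0.70 (-1.19 to -0.20), with ratios of -0.02 and -0.90 without the limit. *Ddit4* was higher in IR on both sides, from 6.30 to 38.3 on the resident and from 16.05 to 39.8 on the monocyte side, and without the limit from 7.97 to 17.7 and from 19.7 to 44.8. *Sesn2* was 5.89 and 8.30 on the resident side and 6.69 and 17.1 on the monocyte side, from 5 UMIs in sham on the latter, with ratios of -0.11 (-0.68 to 0.44) and 0.90 (0.12 to 1.80) without the limit. The summed members were 750 in sham and 1212 in IR on the resident side (0.69, 0.62 to 0.77) and 734 and 748 on the monocyte side (0.03, -0.12 to 0.17). Without the limit the resident side held 761 and 977 (0.36, 0.32 to 0.40), and the ratio of the monocyte side was below 0 (-0.12, -0.20 to -0.03).

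**Figure D3:**
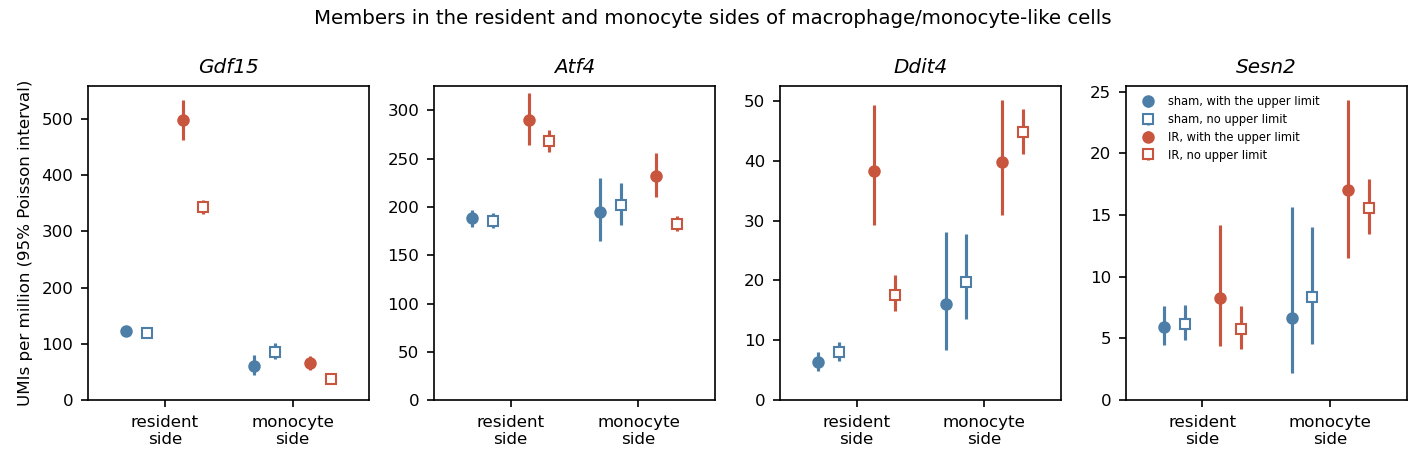
CPM (y axis) of 4 members on the resident and the monocyte side of the macrophage/monocyte-like cells, sham in blue and IR in red, filled circles with the limit of 2500 genes and open squares without it, bars giving 95% Poisson intervals. *Gdf15* in IR stands at 497 on the resident and 65.4 on the monocyte side, whereas *Ddit4* in IR stands at 38.3 and 39.8.

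Most *Gdf15* UMIs lay in cells with many of them. In IR, 32 of 697 macrophage/monocyte-like cells with at least 10 *Gdf15* UMIs held 1105 of the 1233 UMIs, or 89.6%, and the highest cell held 125. In sham, 57 of 3114 cells held 67.0% of the UMIs. Outside these cells the *Gdf15* level was 46.04 CPM in sham and 33.3 in IR, a description only, since the cells were set apart by this same count and deeper cells reach 10 UMIs more easily. For *Ppp1r15a*, 50 sham and 21 IR cells with 10 or more UMIs held 11.1% and 23.6% of its UMIs. *Atf4* had no sham cell and 1 IR cell with as many, and it took 17.2% of IR cells to hold 50% of its UMIs, against 1.43% for *Gdf15*. Sparse members need few cells for that share at any spread, as *Ddit4* (2.87%) and *Sesn2* (2.30%) did in IR, so the measure is read here only against members with a similar number of UMIs, *Atf4* and *Ppp1r15a* (11.3%). The counting intervals of *Gdf15* take no account of this spread over cells.

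**Figure D4:**
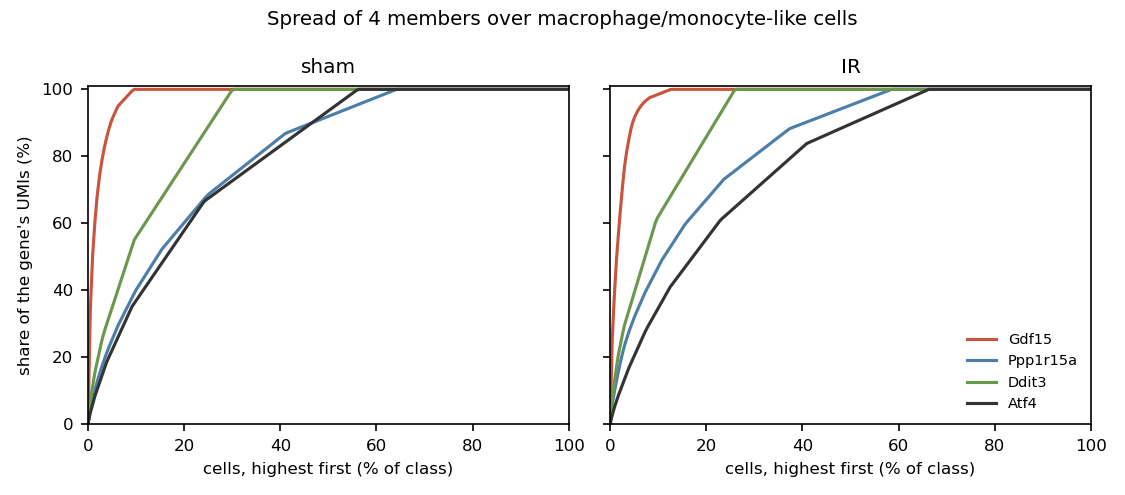
Cumulative share of a gene's UMIs (y axis, percent) against the share of macrophage/monocyte-like cells ordered from the highest count down (x axis, percent), for 4 members in sham (left) and IR (right). The *Gdf15* curve reaches 50% at 0.96% of the cells in sham and 1.43% in IR, while the *Atf4* curve reaches it at 16.3% and 17.2%.

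The cells with at least 10 *Gdf15* UMIs were on the resident side in 33 of 57 cases in sham and 23 of 32 in IR, with 1 and 3 on the monocyte side and the others on neither. Of all cells of the class, 1928 of 3114 and 248 of 697 were on the resident side. *Ddit3* was 235 CPM in these cells and 91.7 in cells without a *Gdf15* UMI in sham, and 135 and 64.0 in IR. *Atf4* was 351 and 195 in sham and 343 and 253 in IR. *Trib3* had 2 and 3 UMIs in these few cells, levels of 7.01 and 11.95, against 1.06 and 0.86 in cells without *Gdf15*. *Ppp1r15a* did not follow, with 358 and 374 in sham and 211 and 316 in IR, nor did *Ddit4*, with 10.5 and 9.12 in sham and 7.97 and 38.0 in IR. *Lpl*, lipoprotein lipase, was 147 and 54.3 in sham and 1171 and 745 in IR. The resident marker *Mertk* was 10.5 (3 UMIs) and 32.4 in sham and 59.8 and 43.7 in IR. The median depth was 5010 and 4604 UMIs in sham and 7830.5 and 6207 in IR. The cells were picked by a member's own count, so these values are a description. With each cell thinned to 1000 UMIs and split by whether it held any *Gdf15* UMI, the shares with a *Ddit3* UMI were 10.8% (6.39% to 16.7%) and 9.52% (8.47% to 10.6%) in sham and 17.3% (8.23% to 30.3%) and 8.55% (6.45% to 11.1%) in IR, with overlapping intervals. For *Atf4* they were 22.8% and 17.6% in sham, also overlapping, and 38.5% (25.3% to 53.0%) and 21.1% (17.9% to 24.5%) in IR. For *Atf5* they were 4.43% (1.80% to 8.92%, 7 of 158 cells) and 0.90% (0.59% to 1.32%) in sham. In IR the *Atf5* shares were 1.92% and 1.48%, with overlapping intervals. The intervals of each other member overlapped in both libraries.

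The levels of the members were compared with each other across the 16 sums of 8 classes and 2 libraries. The median Pearson correlation of the 45 pairs, on a log2 scale with 10 added to each level, was 0.09, from -0.62 for *Atf4* and *Chac1* to 0.76 for *Chac1* and *Sesn2*, and 20 pairs were below 0. *Atf5* went with *Asns* (0.69) and with *Trib3* (0.61), and *Ddit3* with *Ppp1r15a* (0.51). The sums share libraries and free RNA, and no p value was computed. Counting error can keep the correlations of *Trib3*, *Asns* and *Chac1* low, as they had few UMIs in most sums. No value for other sets of genes is given beside these. Of 8603 other genes with at least 500 UMIs in the filtered cells, those closest to the mean of the 10 members over the 16 sums were *Cask* (r = 0.95), *Slc35f5* (0.93), *Cd63* (0.91), *Ctsl* (0.90), *Fndc3b* (0.90), the immediate-early gene *Egr1* (0.90), *Dram1* (0.89), *Ckap4* (0.89), *Tcf7l2* (0.89) and *Slc44a1* (0.89). Like the summed members, *Cd63* and *Ctsl* were higher in sham fibroblast-like cells (1256 and 1166 CPM) than in sham macrophage/monocyte-like cells (504 and 203) and lowest of these 3 classes in T cell-like cells (17.9 and 23.8).

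Other genes of the pathway were read from lists in the same cells. The lists were chosen with earlier results of these libraries known, so their counts are a description and support no conclusion about the pathway. The amino acid transporters bring in the substrates of several of these enzymes. Of the 6 with enough UMIs in macrophage/monocyte-like cells, 5 were at least 2-fold higher in IR and none lower, with a median log2 ratio of 1.55, against 10.2% of all genes higher and a median of 0.01. Among them *Slc7a11*, the cystine importer, was 8.61 in sham (127 UMIs) and 316 in IR (1294 UMIs), *Slc7a5* 3.12 and 16.4, *Slc1a5* 18.8 and 57.5, *Slc7a1* 10.9 and 30.8 and *Slc38a2* 42.9 and 117. Without the upper limit 5 of 7 were higher and 1 lower, against 9.02% and 16.3% of all genes. In fibroblast-like cells 5 of 8 were higher and none lower, or 3 of 8 and none without the limit, against 12.5% and 18.9% of all genes with it, and *Slc7a11* was at 2.67 and 84.5. In neutrophil-like cells 3 of 6 were higher and 1 lower, or 4 and 0 without the limit, against 13.7% and 24.9%, and *Slc7a11* was at 873 and 3010. Of 18 cytosolic aminoacyl-tRNA synthetases, 9 were at least 2-fold higher in IR fibroblast-like cells and none lower (median 0.97, against 12.5% and 18.9% of all genes and a median of -0.09), among them *Nars* (78.6 and 174) and *Aars* (55.3 and 117). None was past 2-fold in macrophage/monocyte-like cells (median 0.43), and in neutrophil-like cells 2 of 15 were higher and 3 lower, against 13.7% and 24.9% of all genes. Of the serine, one-carbon and proline synthesis genes, 3 of 9 were higher in fibroblast-like cells and 1 lower (2 and 1 without the limit), against the same 12.5% and 18.9%, with the folate enzyme *Mthfd2* at 33.3 and 68.4.

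The kinases and phosphatase subunits that act on eIF2α had 1 of 7 genes past 2-fold in macrophage/monocyte-like cells, *Eif2ak2*, the double-stranded RNA sensor PKR, with 64.3 in sham and 32.0 in IR, where 11.6% of all genes were lower and 10.2% higher. *Ppp1r15b*, the constitutive counterpart of *Ppp1r15a* that directs the phosphatase to eIF2α on its own, was 43.7 and 70.4 there. None of 8 partner and related factors was past 2-fold in that class, against the same shares. *Cebpb* was 1770 and 3499, a log2 ratio of 0.98 (0.95 to 1.01), and *Atf3* 1169 and 1223. In fibroblast-like cells *Atf3* was 391 and 134. Of 10 other ATF4 or CHOP targets with enough UMIs in macrophage/monocyte-like cells, 3 were higher, against 10.2% of all genes, *Vegfa*, *Gadd45a* (7.12 and 44.01) and *Ero1l* (10.6 and 40.1), and 1 lower, against 11.6%, the cell death gene *Bbc3* (49.96 and 23.2).

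The ER chaperones of the ATF6 and XBP1 arms, the other branches of the ER stress response, had another pattern in fibroblast-like cells, where 7 of 17 were at least 2-fold lower in IR and none higher (median -0.70), against 18.9% and 12.5% of all genes, with *Calr* at 1350 and 529 and *Manf* at 587 and 233. Among macrophage/monocyte-like cells 1 was lower, *Sdf2l1* (335 and 86.8), and 1 higher, *Edem1* (64.1 and 128), with a median of -0.57, against 11.6% and 10.2% of all genes. Without the limit none was higher and the median was -0.28. With the limit, *Hspa5*, which encodes BiP, was 1088 and 1214 in this class. In neutrophil-like cells 4 of 17 were higher and 2 lower (3 and 1 without the limit), against 13.7% and 24.9% of all genes, with *Hspa5* at 185 and 579. Of 6 mitochondrial chaperones and proteases none was past 2-fold in macrophage/monocyte-like cells, and 1, *Hspa9* (88.4 and 255), was higher in fibroblast-like cells, where 12.5% of all genes were.

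Genes raised by dissociation and RNA of other cell types differed between the libraries in the same classes. In fibroblast-like cells, in which *Ddit3*, *Trib3*, *Atf5* and *Gdf15* were lower in IR, 9 of 13 immediate-early genes were at least 2-fold lower, against 18.9% of all genes. Of the same 13 genes, 2 were higher and 1 lower in macrophage/monocyte-like cells, and the heat-shock genes went from 1618 to 3504 CPM with 2 of 7 higher and 1 lower, where 10.2% and 11.6% of all genes were. All 10 neutrophil markers were detected in both libraries in macrophage/monocyte-like cells, summing to 169 in sham and 1139 in IR, and in fibroblast-like cells, summing to 906 and 1853, against 179480 and 154899 in neutrophil-like cells. The 4 hemoglobin genes, from red cells, summed to 508 and 664 in macrophage/monocyte-like, 199 and 712 in neutrophil-like and 500.05 and 109 in fibroblast-like cells. Without the upper limit they summed to 418 and 326, 3239 and 606, and 440.2 and 68.9, so the direction turned in the macrophage/monocyte-like and neutrophil-like cells. The median mitochondrial share was 2.97% and 5.68% in macrophage/monocyte-like, 2.77% and 3.42% in neutrophil-like and 3.34% and 6.03% in fibroblast-like cells. The part of these differences in the levels of the members was not tested.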

How the data were processed

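Left ventricular cells were captured with 10× Chromium and, per the labels and the study's methods, aligned to mm10 with Cell Ranger (3.1.0 in the file headers). The authors deposited UMI counts, whole numbers without normalization, per gene and barcode, in 1 matrix per condition. Here cells with 200 to 2500 genes and at most 30% mitochondrial UMIs were kept. A cell was assigned to the class whose marker share, relative to that class's typical share, was at least 2 times the next and at least 0.2, with at least 2 markers detected. The scoring rule was set after the data were seen. Of 11159 cells named by both their markers and their graph cluster, 98.0% had the same class, a share that leaves out cells unassigned by either. Over all cells of a cluster it was lower where IR cells prevailed. It was 94.7% and 69.5% in the macrophage/monocyte clusters of 106 sham and 406 IR and of 37 and 353 cells, against 99.6% and 98.3% in the others. It was 65.6% in the fibroblast cluster of 81 and 178 cells, against 99.0% in the other. In the macrophage/monocyte, neutrophil and fibroblast classes, sham and IR cells lay largely in different clusters. Differences between the libraries within these classes therefore also lie between clusters. No cluster was named B cell and only 1, of 93 cells, T cell, in which 35.5% of cells had the same class, so B cell-like and T cell-like cells were hardly checked. Doublets were not removed beyond the upper limit. UMIs were summed per class and library and divided by the class total. Poisson, Clopper-Pearson and conditional binomial intervals were exact (scipy 1.17.1) and cover counting error only. With 1 library per condition no test was run and no p value computed, and a difference was counted past 2-fold where both libraries together had at least 20 UMIs. Named genes were all members, the 4 of each list with the highest mean level, up to 4 past 2-fold in macrophage/monocyte-like cells with at least 100 UMIs, and the 10 closest to the members' mean. *Lpl*, *Ccr2* and *Mertk* were added after their values were seen. Members, pathway lists and markers were chosen with earlier results of these data known. Ratios and classes were checked on simulated data. The simulated cells were drawn from the summed profiles of the assigned classes and the simulated counts had counting error only. These checks therefore test the calculation, and cannot show that the classes are right or that the intervals cover the spread over cells. Alternatives are given in the closing section.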

Additional observations from a re-analysis of the deposited data

Results flagged for a closer look

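*Gdf15* had differences between IR and sham past 2-fold in opposite directions in different classes, with each counting interval on its own side of 0. The log2 ratio was 1.14 in macrophage/monocyte-like cells, -1.36 in fibroblast-like cells and -2.65 in endothelial-like cells, where it rested on 23 UMIs in sham and 1 in IR. The difference between the classes was not tested. Without the upper limit on genes the ratios were 0.48, -2.13 and 0.36, so the endothelial-like value changed direction and the fibroblast-like one did not.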

How the results depend on the processing

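No paired analysis was possible because the matrices do not map cells to the numbered samples, and for the same reason no sample could be left out. Doublet scoring, a stricter marker rule, a mitochondrial limit of 10% and leaving out the 30 shared barcodes (chosen after seeing the data) kept each of the 3 summed log2 ratios within its main interval. For the summed members in macrophage/monocyte-like cells (0.28), the log2 ratio was 0.0187 with no upper limit on genes, 0.36 with mitochondrial, ribosomal and hemoglobin genes left out of the total, 0.17 with cells thinned to 1000 UMIs, and -0.0054 in only the cells above 2500 genes, a setting chosen after seeing the data. In neutrophil-like cells (-0.02) it was 0.34 with the median gene ratio set to 1, -0.16 after thinning and 0.27 above 2500 genes. In fibroblast-like cells (-0.51) it was -0.39 with graph clusters and -0.66 above 2500 genes. The count of members past 2-fold higher in macrophage/monocyte-like cells, 2 (*Ddit4* and *Gdf15*), was 1 after thinning (*Ddit4*) and 1 above 2500 genes, there *Asns*, with *Ddit4* at 0.82 and *Gdf15* at 0.46, and 2 instead of 0 were lower there (*Atf5* and *Trib3*). The count past 1.5-fold was 3. Shares of all genes under these settings are not set beside these counts, which therefore show nothing particular to the members. The cause of the changes was not tested. With no minimum of 20 UMIs, 46.9% instead of 24.9% of genes were lower in neutrophil-like and 29.1% instead of 12.5% higher in fibroblast-like cells. Of 288 values of single members in these 3 classes under all settings, 250 lay within the main interval, 38 moved and 0 called values changed sign. Values not past 2-fold with the limit did turn in these classes. In macrophage/monocyte-like cells *Atf5* went from 0.17 to -0.67 without the upper limit and *Trib3* from 0.44 to -0.92. In only the cells above 2500 genes they were at -1.80 and -2.10. Outside these classes, values that changed direction without the upper limit included *Gdf15* in mural-like (-1.18 to 0.74) and endothelial-like cells (-2.65 to 0.36). In B cell-like cells *Gdf15* went from 0.91 (5 and 7 UMIs) to -3.19 (108 and 7 UMIs). In mural-like cells *Ppp1r15a* (-0.31 to 0.25) and the summed members (-0.09 to 0.20) also turned. Depth limits *Trib3*, *Asns* and *Chac1*, which had few UMIs in most classes.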
